A study of Mus musculus with 22 samples.

Results

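The proliferation genes described here are 40 cell cycle genes chosen by name: 17 act in or before S phase and 23 in G2 and mitosis. They are 40 of the 24786 genes in each table of expression values, and all 40 were found in all 3 tables, of whole liver, whole thymus and CD8+ T cells sorted from liver. No measured value was used to choose them, although earlier results of these data were known.

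Bulk RNA sequencing was done on mice aged 2 to 4 weeks, labelled as the C57BL/6 strain. The series title names dnTGFβRII Aire-/- mice. The transgene, written TG in the labels, encodes a dominant-negative type II TGF-β receptor, which in this mouse model is expressed from a Cd4 promoter in T cells, and Aire encodes the regulator by which thymic epithelium displays tissue antigens. Whole liver was compared in TG Aire-/- mice depleted of CD8+ T cells (2 samples), untreated TG Aire-/- mice (2 samples) and Aire+/+ mice without the transgene (2 samples), all labelled as a second batch. The labels do not give the method of depletion. Whole thymus was compared in TG Aire-/-, TG Aire+/- and Aire-/- mice (3 samples each), so that every thymus group carried at least 1 disrupted Aire allele. CD8+ T cells sorted from liver (500000 cells, total RNA) gave 1 library each for TG Aire-/-, TG Aire+/- and Aire-/- mice, and whether mice were pooled for them is not given. Whether the replicates of a tissue group were separate animals is not stated either, so the p-values measure only how far these samples spread, which may be technical in part.

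A dividing cell first licenses its replication origins by loading the Mcm2-7 helicase with Cdc6 and Cdt1, then copies its DNA using nucleotides supplied by ribonucleotide reductase and thymidylate synthase. In G2 it accumulates cyclins A and B with Cdk1, whose activity, with the Plk1 and Aurora kinases, builds the spindle, and Cdc20 and Ube2c then direct the destruction of the cyclins that ends mitosis. E2F factors drive the genes of the first wave and the MuvB complex with Foxm1 those of the second. Few hepatocytes of a healthy adult liver divide, the thymus holds many dividing T cell precursors, and activated CD8+ T cells divide fast.

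Values are RPKM, reads scaled to the length of the gene and to the mapped reads of the library. Inferred depth was 20300000 to 29900000 reads per library. The tissues carried the markers of their labels: 15 hepatocyte genes summed to 25296 to 72032 RPKM in liver and to 49.3 RPKM or less in thymus, and Cd8a stood at 172 to 260 RPKM in the sorted cells. Aire itself was read in thymus of every genotype, at 20.2, 6.50 and 7.63 RPKM in TG Aire-/-, 13.6, 10.9 and 10.2 RPKM in TG Aire+/- and 27.2, 29.5 and 16.0 RPKM in Aire-/- thymus. The part of the gene that is disrupted is not given here, so these gene-wide values do not check the labels. Certain libraries stood apart. Replicate 1 of the TG Aire-/- thymus held 418 RPKM over 15 genes of double-positive thymocytes, where the other TG Aire-/- thymus libraries held 2854 and 3766 RPKM, the TG Aire+/- libraries 3506 to 3903 RPKM and the Aire-/- libraries 3161 to 3983 RPKM. It also held the highest sums of the 9 thymus libraries for B cell genes (279 RPKM), macrophage genes (1579 RPKM) and adipocyte genes (1132 RPKM). The sorted Aire-/- CD8+ T library held 27061 RPKM over 13 erythroid genes, against 457 RPKM in the TG Aire-/- library and 390 RPKM in the TG Aire+/- library. Replicate 1 of the CD8-depleted livers was lowest of all 6 livers for 37 of the 40 members. How many of all genes were lowest there was not counted. That library also had the fewest genes at 1 RPKM or more of the 6 livers, 9761.

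In TG Aire-/- liver most of the proliferation genes were higher than in Aire+/+ liver, and in CD8-depleted TG Aire-/- liver most were lower than in untreated TG Aire-/- liver. Of the 38 members that reached 1 RPKM in 2 or more liver libraries, 30 rose in TG Aire-/- livers relative to Aire+/+ livers and none fell (limma on log2(RPKM + 1), Benjamini-Hochberg adjusted p under 0.05 over all 12231 genes tested). Over all genes 31.8% rose and 5.5% fell. The members' median log2 difference was 1.28 where that of all genes was 0.53, and it was 1.38 for the 22 mitosis members tested and 1.07 for the 16 S phase members. For 35 members the TG Aire-/- livers lay wholly above the Aire+/+ livers, as did 63% of all genes, and for none wholly below, as did 15.4% of all genes. The 8 members not called were Mcm5, Tyms, Tk1, Uhrf1, Ccne2, Aurka, Birc5 and Cdc20. Cdc6 and Cenpf did not pass the expression filter. A further 9 members (Ccne1, Foxm1, Plk1, Bub1, Bub1b, Cenpe, Kif11, Kif23 and Tpx2) passed it only through the TG Aire-/- livers, where they are high, so they had to differ. All of these but Ccne1 are mitosis members, and the medians and the count of 35 include them. Without any expression filter the medians were 1.26 for all 40 members, 1.32 for mitosis members, 1.03 for S phase members and 0.28 for all genes. Of the 29 members that pass without these livers, 21 were called higher in TG Aire-/- against Aire+/+ livers and none lower. The matching share of all genes was not counted.

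Relative to the untreated TG Aire-/- livers, 36 of the 38 members fell in the CD8-depleted TG Aire-/- livers and none rose (limma, adjusted p under 0.05), where 33.5% of all genes fell and 4.49% rose. The median log2 difference was -1.73 for the members, -1.90 for mitosis members and -1.61 for S phase members, against -0.58 for all genes. CD8-depleted livers lay wholly below TG Aire-/- livers for 37 members, as they did for 60.6% of all genes, and wholly above for none, where 10.1% of all genes did. Tk1 and Ccne2 were not called. Of the 29 members that pass the filter without the TG Aire-/- livers, 27 were called lower, and the matching share of all genes was not counted. Without any expression filter the medians were -1.69 for all 40 members, -1.82 for mitosis members, -1.60 for S phase members and -0.32 for all genes. These comparisons share the TG Aire-/- livers, and in bulk tissue fewer cells of a type and less RNA per cell cannot be told apart.

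The counts depend on scaling and on single libraries, since each group has 2. The median of all genes moved to -0.05 in TG Aire-/- against Aire+/+ liver when libraries were scaled by median of ratios, and there 53.3% of called genes were higher, against 85.3% without scaling. Members then had a median of 0.76, and 5 were called higher (Bub1b, Mki67, Rrm2, Top2a and Tpx2). Quantile normalization gave 0.61 and 3 calls (Mki67, Rrm2 and Top2a). In the CD8-depleted comparison 45.2% of called genes were higher under median of ratios, against 11.8% without scaling, and 21 members were still called lower, with a member median of -1.21. Without any expression filter, 15 members were called higher in TG Aire-/- livers. Without Aire+/+ replicate 1 only 2 members were called higher, without Aire+/+ replicate 2 or TG Aire-/- replicate 1 it was 7, and without TG Aire-/- replicate 2 it was 12. Mki67 and Rrm2 kept the call under all 15 alternatives tried. In CD8-depleted against TG Aire-/- livers 21 members were called lower without TG Aire-/- replicate 1 and 21 without CD8-depleted replicate 1, and 13 members kept the call under all 15 alternatives.

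**Figure D1:**
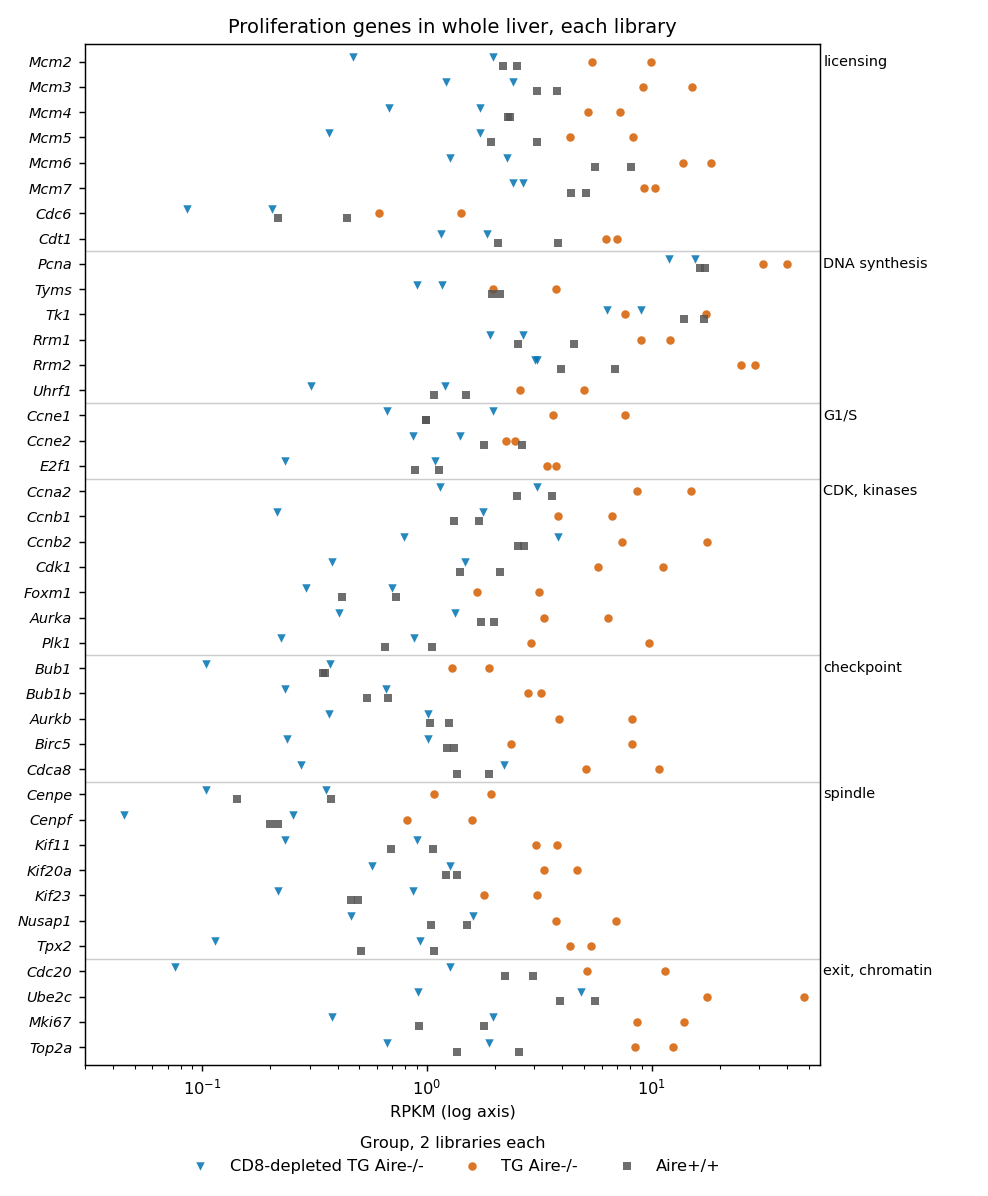
RPKM (log axis) of the 40 proliferation genes in each of the 6 livers, grouped by role, with 1 point per library. For 35 of the 38 tested genes both TG Aire-/- livers lie to the right of both Aire+/+ livers (63% of all genes do), and for 16 of the 38 both CD8-depleted livers lie to the left of both Aire+/+ livers (28.8% of all genes do). Of the 38, 9 passed the expression filter only through the TG Aire-/- livers.

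The licensing genes, which encode the helicase and its loaders, rose together: 6 of the 7 tested were called higher in TG Aire-/- against Aire+/+ livers, with log2 differences of 0.91 to 1.53, and all 7 were called lower in CD8-depleted against TG Aire-/- livers. The shares of all genes were 31.8% higher in the first comparison and 33.5% lower in the second. Mcm3, a helicase subunit, was at 1.22 and 2.40 RPKM in CD8-depleted TG Aire-/- livers, 15.2 and 9.12 RPKM in TG Aire-/- livers and 3.08 and 3.79 RPKM in Aire+/+ livers. Its log2 difference was 1.53 ± 0.34 (SE) in TG Aire-/- against Aire+/+ livers (limma adjusted p = 0.0127) and -2.22 ± 0.34 in CD8-depleted against TG Aire-/- livers (adjusted p = 0.00405). No library of 1 group overlapped another, and the CD8-depleted livers were the lowest. Mcm6, of the same helicase, was at 1.26 and 2.26 RPKM in CD8-depleted livers, 18.3 and 13.8 RPKM in TG Aire-/- livers and 5.61 and 8.09 RPKM in Aire+/+ livers. It had the largest difference of the licensing genes in CD8-depleted against TG Aire-/- livers, -2.64 ± 0.31 (limma adjusted p = 0.00219). Mcm7 was at 2.42 and 2.68 RPKM, 10.3 and 9.19 RPKM, and 5.10 and 4.37 RPKM in CD8-depleted, TG Aire-/- and Aire+/+ livers in that order, and Mcm4 rose by 1.11 ± 0.31 in TG Aire-/- livers (limma adjusted p = 0.0278). In Mcm7 the 3 groups did not overlap and the CD8-depleted livers were lowest. Mcm7 shares exon bases with Cops6 and Ap4m1 on the other strand, and whether the counting used strand is not given.

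Among the genes of DNA synthesis, Rrm2, the inducible subunit of ribonucleotide reductase, changed most. It stood at 3.08 and 3.01 RPKM in CD8-depleted TG Aire-/- livers, 28.7 and 24.9 RPKM in TG Aire-/- livers and 3.95 and 6.88 RPKM in Aire+/+ livers. The log2 difference was 2.15 ± 0.30 in TG Aire-/- against Aire+/+ livers (limma adjusted p = 0.003) and -2.78 ± 0.30 in CD8-depleted against TG Aire-/- livers (adjusted p = 0.00191). The 3 groups did not overlap. Rrm1, the large subunit of the same enzyme, rose by 1.37 ± 0.31 in TG Aire-/- livers, and Pcna, the sliding clamp of the DNA polymerases, by 1.03 ± 0.27 (limma adjusted p = 0.0149 and 0.0242). Pcna had the highest mean RPKM of the S phase members over the 6 livers, at 11.9 and 15.6 RPKM in CD8-depleted livers, 40.02 and 31.3 RPKM in TG Aire-/- livers and 17.3 and 16.5 RPKM in Aire+/+ livers. Tyms, thymidylate synthase, and Tk1, thymidine kinase, did not pass the test in TG Aire-/- against Aire+/+ livers, with log2 differences of 0.31 ± 0.28 and -0.38 ± 0.39. Tk1 was at 8.90 and 6.33 RPKM, 17.4 and 7.61 RPKM, and 13.9 and 16.99 RPKM in CD8-depleted, TG Aire-/- and Aire+/+ livers in that order. Tk1 shares exon bases with Afmid, a gene on the opposite strand that is abundant in liver. Afmid was at 48.5 and 20.4 RPKM in CD8-depleted livers, 21.1 and 10.7 RPKM in TG Aire-/- livers and 41.3 and 49.8 RPKM in Aire+/+ livers. Reads from the bases that Tk1 and Afmid share cannot be told apart without strand, so Tk1 in liver is uncertain.

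Of the 3 regulators of the G1/S step, Ccne1, cyclin E1, and E2f1, the transcription factor, rose in TG Aire-/- livers, and Ccne2 did not pass the test. Ccne1 passed the filter only through the TG Aire-/- livers, so it had to differ and its p-values are descriptions. In the fit without any expression filter Ccne1 was called in neither comparison. Ccne1 was at 0.663 and 1.96 RPKM in CD8-depleted livers, 7.61 and 3.62 RPKM in TG Aire-/- livers and 0.990 and 0.993 RPKM in Aire+/+ livers. Its log2 difference was 1.66 ± 0.38 in TG Aire-/- against Aire+/+ livers (limma adjusted p = 0.0151) and -1.51 ± 0.38 in CD8-depleted against TG Aire-/- livers (adjusted p = 0.0208). E2f1 rose by 1.19 ± 0.29 and fell by 1.52 ± 0.29 in the same comparisons (limma adjusted p = 0.018 and 0.00834). Ccne2, cyclin E2, was at 1.40 and 0.865 RPKM in CD8-depleted livers, 2.25 and 2.47 RPKM in TG Aire-/- livers and 1.79 and 2.64 RPKM in Aire+/+ livers. The TG Aire-/- livers lay between the Aire+/+ livers, and the log2 difference of 0.07 ± 0.26 turned negative under scaling.

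The cyclins, Cdk1 and mitotic kinases moved as a group: 6 of 7 rose in TG Aire-/- against Aire+/+ livers and 7 of 7 fell in CD8-depleted against TG Aire-/- livers (limma, adjusted p under 0.05). Of all genes, 31.8% rose in the first comparison and 33.5% fell in the second. Plk1 and Foxm1, which is counted in this group, passed the filter only through the TG Aire-/- livers, so they had to differ. In the fit without any expression filter Plk1 was called in neither comparison, and Foxm1 only in CD8-depleted against TG Aire-/- livers. Cdk1, the kinase that starts mitosis, was at 0.376 and 1.47 RPKM in CD8-depleted livers, 11.2 and 5.77 RPKM in TG Aire-/- livers and 1.40 and 2.12 RPKM in Aire+/+ livers. The log2 difference was 1.73 ± 0.40 in TG Aire-/- against Aire+/+ livers (limma adjusted p = 0.0144) and -2.30 ± 0.40 in CD8-depleted against TG Aire-/- livers (adjusted p = 0.00605). Ccna2, cyclin A2, was at 1.14 and 3.08 RPKM in CD8-depleted livers, 14.97 and 8.58 RPKM in TG Aire-/- livers and 2.51 and 3.60 RPKM in Aire+/+ livers. Ccna2 is uncertain, since Exosc9, which shares exon bases with it on the other strand, was at 5.98 and 6.03 RPKM in CD8-depleted livers, 17.03 and 13.9 RPKM in TG Aire-/- livers and 6.82 and 6.30 RPKM in Aire+/+ livers. Plk1, which matures centrosomes, was at 0.223 and 0.872 RPKM in CD8-depleted livers, 9.76 and 2.90 RPKM in TG Aire-/- livers and 0.647 and 1.05 RPKM in Aire+/+ livers. In each of these genes the TG Aire-/- livers were above all other livers and replicate 1 was the higher. Aurka, the centrosomal Aurora kinase, missed the threshold in TG Aire-/- against Aire+/+ livers with a log2 difference of 0.98 ± 0.35 (limma adjusted p = 0.0635) and fell by 1.64 ± 0.35 in CD8-depleted against TG Aire-/- livers (adjusted p = 0.0122).

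Checkpoint genes rose in 4 of 5 and spindle genes in 6 of 6 tested cases in TG Aire-/- against Aire+/+ livers, and all 11 fell in CD8-depleted against TG Aire-/- livers. Over all genes 31.8% rose in the first comparison and 33.5% fell in the second. Bub1, Bub1b, Cenpe, Kif11, Kif23 and Tpx2 passed the filter only through the TG Aire-/- livers, so they had to differ. Their p-values below, and their part in these counts, are descriptions. In the fit without any expression filter they were also called in both comparisons. Bub1b, which holds back the exit from mitosis until chromosomes are attached, was at 0.233 and 0.654 RPKM in CD8-depleted livers, 3.23 and 2.82 RPKM in TG Aire-/- livers and 0.542 and 0.669 RPKM in Aire+/+ livers. Its log2 difference was 1.32 ± 0.23 in TG Aire-/- against Aire+/+ livers (limma adjusted p = 0.00603) and -1.49 ± 0.23 in CD8-depleted against TG Aire-/- livers (adjusted p = 0.00437). Aurkb, the kinase of the chromosomal passenger complex, rose by 1.64 ± 0.35, and Bub1, a checkpoint kinase of the kinetochore, by 0.93 ± 0.22 (limma adjusted p = 0.0117 and 0.0166). Tpx2, a spindle assembly factor, was at 0.113 and 0.931 RPKM in CD8-depleted livers, 5.34 and 4.33 RPKM in TG Aire-/- livers and 0.508 and 1.07 RPKM in Aire+/+ livers. The kinesins Kif11 and Kif23, which drive spindle poles apart and organise the midzone, rose by 1.24 ± 0.28 and 1.19 ± 0.29 in TG Aire-/- livers (limma adjusted p = 0.0141 and 0.0184). Kif20a, another midzone kinesin, fell by 1.39 ± 0.27 in CD8-depleted against TG Aire-/- livers (limma adjusted p = 0.00906). All of these genes were under 2 RPKM in every Aire+/+ liver.

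Genes of mitotic exit and chromosome structure had the largest median log2(RPKM + 1) difference of the 7 roles, 2.17 in TG Aire-/- against Aire+/+ livers and -2.53 in CD8-depleted against TG Aire-/- livers. Mki67, which encodes the Ki-67 antigen of dividing cells, was at 0.376 and 1.96 RPKM in CD8-depleted livers, 13.96 and 8.60 RPKM in TG Aire-/- livers and 0.924 and 1.78 RPKM in Aire+/+ livers. The log2 difference was 2.37 ± 0.42 in TG Aire-/- against Aire+/+ livers (limma adjusted p = 0.00627) and -2.57 ± 0.42 in CD8-depleted against TG Aire-/- livers (adjusted p = 0.00521). The TG Aire-/- livers were far above the rest, and the CD8-depleted livers lay on either side of the Aire+/+ livers. Ube2c, the ubiquitin-conjugating enzyme of the anaphase-promoting complex, was at 0.914 and 4.84 RPKM in CD8-depleted livers, 47.7 and 17.6 RPKM in TG Aire-/- livers and 3.92 and 5.59 RPKM in Aire+/+ livers. On the log2(RPKM + 1) scale it had the largest difference of all members in both comparisons, 2.40 ± 0.61 and -3.17 ± 0.61 (limma adjusted p = 0.0205 and 0.00833). As a ratio of mean RPKM its 6.87-fold level in TG Aire-/- over Aire+/+ livers was below that of Mki67 (8.33-fold) and Plk1 (7.47-fold). Top2a, the topoisomerase that untangles chromosomes, rose by 1.96 ± 0.37 and fell by 2.36 ± 0.37 (limma adjusted p = 0.00748 and 0.00437). Cdc20, an activator of the anaphase-promoting complex, was at 0.0756 and 1.26 RPKM in CD8-depleted livers, 11.4 and 5.13 RPKM in TG Aire-/- livers and 2.22 and 2.96 RPKM in Aire+/+ livers. Its rise missed the threshold (1.29 ± 0.45, limma adjusted p = 0.0577) and it fell by 2.48 ± 0.45 in CD8-depleted against TG Aire-/- livers (adjusted p = 0.00707). Elovl1, which shares exon bases with Cdc20 on the other strand, was at 8.32 and 22.97 RPKM in CD8-depleted livers, 24.5 and 19.96 RPKM in TG Aire-/- livers and 10.96 and 8.28 RPKM in Aire+/+ livers. Ube2c shares exon bases with Tnnc2 on the other strand.

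Promoters of the S phase and mitosis members differ in known elements, and those of the 3 S phase and 3 mitosis members with the smallest p in TG Aire-/- against Aire+/+ liver that hold a searched element are shown because these genes rose together. Each window runs 5' to 3' on the gene's strand from 250 bases before the RefSeq start to 50 bases after it, in GRCm38.p6. Capitals mark matches, on either strand, to the CHR (TTTGAA or TTCGAA, bound by the MuvB complex), to an E2F site (TTTCGCGC, TTTGGCGC, TTTCCCGC or TTTGCCGC) or to the CCAAT box (CCAAT). In these 6 windows no match overlapped a match to another element. The windows lie at chr12:24708004-24708303 (plus strand, Rrm2), chr1:20820263-20820562 (minus strand, Mcm3), chr7:102441445-102441744 (plus strand, Rrm1), chr2:118597961-118598260 (plus strand, Bub1b), chr7:135716330-135716629 (minus strand, Mki67), chr11:99024140-99024439 (minus strand, Top2a).
Rrm2: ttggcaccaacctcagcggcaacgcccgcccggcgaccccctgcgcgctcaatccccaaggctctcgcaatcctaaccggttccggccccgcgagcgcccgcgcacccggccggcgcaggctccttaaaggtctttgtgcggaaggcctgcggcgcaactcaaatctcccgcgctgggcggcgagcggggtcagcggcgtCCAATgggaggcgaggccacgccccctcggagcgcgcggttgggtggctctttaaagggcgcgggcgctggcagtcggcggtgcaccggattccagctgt
Mcm3: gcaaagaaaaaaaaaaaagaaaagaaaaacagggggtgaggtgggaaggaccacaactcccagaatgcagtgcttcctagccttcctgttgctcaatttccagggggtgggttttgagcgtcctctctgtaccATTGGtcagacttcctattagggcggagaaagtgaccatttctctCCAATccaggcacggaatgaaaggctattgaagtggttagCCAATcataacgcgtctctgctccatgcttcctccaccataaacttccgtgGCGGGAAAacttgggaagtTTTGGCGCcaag
Rrm1: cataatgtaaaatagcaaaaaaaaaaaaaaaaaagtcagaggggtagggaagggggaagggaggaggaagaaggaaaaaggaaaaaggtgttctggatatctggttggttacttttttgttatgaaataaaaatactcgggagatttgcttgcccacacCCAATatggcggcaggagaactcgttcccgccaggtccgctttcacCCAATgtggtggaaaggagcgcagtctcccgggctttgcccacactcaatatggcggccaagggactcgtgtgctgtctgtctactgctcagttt
Bub1b: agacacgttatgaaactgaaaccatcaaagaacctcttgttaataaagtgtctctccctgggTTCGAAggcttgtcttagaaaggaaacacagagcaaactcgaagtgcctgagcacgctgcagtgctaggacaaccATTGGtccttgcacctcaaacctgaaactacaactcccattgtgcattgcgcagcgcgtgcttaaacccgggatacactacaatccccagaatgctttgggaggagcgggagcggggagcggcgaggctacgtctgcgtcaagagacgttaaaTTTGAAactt
Mki67: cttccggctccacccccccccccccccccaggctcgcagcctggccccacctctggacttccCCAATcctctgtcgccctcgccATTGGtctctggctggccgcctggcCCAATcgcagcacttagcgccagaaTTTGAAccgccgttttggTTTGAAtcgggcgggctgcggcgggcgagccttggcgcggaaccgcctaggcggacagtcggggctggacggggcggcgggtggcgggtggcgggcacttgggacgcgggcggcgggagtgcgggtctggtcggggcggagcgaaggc
Top2a: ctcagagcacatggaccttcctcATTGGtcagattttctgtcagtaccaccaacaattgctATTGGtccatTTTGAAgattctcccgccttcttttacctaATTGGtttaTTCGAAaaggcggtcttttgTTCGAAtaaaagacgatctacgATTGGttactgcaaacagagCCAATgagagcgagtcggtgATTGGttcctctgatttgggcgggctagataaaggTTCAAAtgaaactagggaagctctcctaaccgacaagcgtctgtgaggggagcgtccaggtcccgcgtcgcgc
Matches in Top2a were to the CHR at 4 places and to CCAAT at 6, in Mki67 to the CHR at 2 and to CCAAT at 3, and in Bub1b to the CHR at 2 and to CCAAT at 1. Mcm3 held 2 E2F matches within 50 bases after its start and 3 CCAAT boxes, and the windows of Rrm1 and Rrm2 held only CCAAT boxes. RefSeq windows were found for 33 of the 40 members. A CHR match was in 14 of the 18 windows of mitosis members and in 2 of the 17 windows of S phase members, against 19.2% of all 32851 promoter windows. An E2F match was in 1 of the 18 and 7 of the 17 windows, against 2.26% of all. CCAAT was in 16 of the 18 and 11 of the 17 windows, against 37.4% of all. A match of letters is a description and does not show that a factor binds there.

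CD8-depleted TG Aire-/- livers were also compared with Aire+/+ livers, with no member called in either direction (limma, adjusted p under 0.05), where 0.221% of all genes rose and 0.327% fell. At an unadjusted p under 0.05 (limma), 4 members were lower (Mcm6, Mcm7, Tk1 and Cdc20) and none higher, where 846 of all 12231 genes were lower and 481 higher. The CD8-depleted livers lay wholly below the Aire+/+ livers for 16 members, as they did for 28.8% of all genes, and wholly above for none, where 20.2% of all genes did. Of the 16, 12 were S phase members, among them all 7 licensing genes tested, and 4 were mitosis members. The median log2 difference was -0.63 for S phase members and -0.29 for mitosis members, with -0.04 for all genes. Mcm6 had the largest difference, -1.51 ± 0.31 (limma adjusted p = 0.117). Without CD8-depleted replicate 1 the median was -0.36 for S phase members and 0.03 for mitosis members. Mki67 showed -0.20 ± 0.42 (limma adjusted p = 0.913) and 0.35 without that replicate. The sign of the mitosis median rests on that library, and Mki67 was also positive (0.068) without Aire+/+ replicate 2. In CD8-depleted replicate 1, 1 of the 23 mitosis members reached 1 RPKM, against 14 in replicate 2.

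Many cell cycle genes outside the 40 changed in the same directions. Of 27 tested genes of other replication factors, 13 rose in TG Aire-/- against Aire+/+ livers and none fell, and of 31 other mitosis genes 24 rose and none fell (limma), where 31.8% of all genes rose and 5.5% fell. The lists outside the 40 were not split by whether a gene passed the filter only through the TG Aire-/- livers. Any gene that did so had to differ, so the filter may have fixed part of these counts. Sums over all listed genes do not depend on it. Other replication genes summed to 54.6 to 66.7 RPKM in CD8-depleted, 124 to 185 RPKM in TG Aire-/- and 74.7 to 82.5 RPKM in Aire+/+ livers. Other mitosis genes summed to 31.3 to 58.2, 131 to 212 and 62.4 to 72.8 RPKM in the same order. Dbf4, the activator of the Cdc7 kinase, rose by 1.82 ± 0.33 and the condensin gene Ncapd2 by 1.78 ± 0.25 (limma adjusted p = 0.00625 and 0.00332). In CD8-depleted against TG Aire-/- livers 19 of the 27 and 27 of the 31 fell, where 33.5% of all genes fell and 4.49% rose. Dnmt1, the maintenance DNA methyltransferase, fell by 1.77 ± 0.30 (limma adjusted p = 0.00546). Among 14 G1 cyclins, kinases and E2F partners, 8 rose in TG Aire-/- livers and 9 fell in depleted ones. Myc, the growth regulator, was at 3.43 and 3.17 RPKM in CD8-depleted livers, 13.4 and 29.4 RPKM in TG Aire-/- livers and 0.964 and 1.67 RPKM in Aire+/+ livers. Of 17 genes that brake the cell cycle, 7 were higher and 1 was lower in TG Aire-/- against Aire+/+ livers, shares near those of all genes, and 11 were lower and 1 higher in CD8-depleted against TG Aire-/- livers. Tob1, an antiproliferative factor, was the gene in the minority direction both times, with log2 differences of -0.96 and 1.45. Cdkn1a, the p53 target p21, was at 4.50 and 4.69 RPKM in CD8-depleted livers, 45.9 and 108 RPKM in TG Aire-/- livers and 40.7 and 30.8 RPKM in Aire+/+ livers. It fell by 3.68 ± 0.41 in CD8-depleted against TG Aire-/- livers and by 2.70 ± 0.41 against Aire+/+ livers (limma adjusted p = 0.0021 and 0.0451).

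Markers of several other cell types moved with the members in liver, and those of B cells and cholangiocytes did so less clearly or not at all. All 15 T cell genes measured rose in TG Aire-/- against Aire+/+ livers (limma), summing to 10.2 to 17.2 RPKM in CD8-depleted, 51.2 to 77.9 RPKM in TG Aire-/- and 4.02 to 4.67 RPKM in Aire+/+ livers. Over all genes 31.8% rose and 5.5% fell in that comparison. Cd8a was at 0 and 0.187 RPKM in CD8-depleted livers, 8.76 and 3.75 RPKM in TG Aire-/- livers and 0.161 and 0.220 RPKM in Aire+/+ livers. It passed the filter only through the TG Aire-/- livers, so it had to differ. The marker lists were not split by whether their genes passed in this way, so the filter may have fixed part of their counts of higher genes. The sums do not depend on the filter. Macrophage genes (13 of 14 higher in TG Aire-/- livers) summed to 253 to 783, 1833 to 1936 and 250 to 289 RPKM in the 3 groups in the same order. Neutrophil genes (11 of 12 higher) summed to 97.6 to 395, 503 to 684 and 45.1 to 63.6 RPKM. Erythroid genes (10 of 12 higher) summed to 498 to 1100, 17563 to 30683 and 2068 to 2364 RPKM, and endothelial genes (10 of 11 higher) to 34.5 to 39.5, 234 to 439 and 38.3 to 47.6 RPKM. Stellate cell and fibroblast genes (8 of 12 higher) summed to 78.7 to 99.7, 485 to 714 and 149 to 198 RPKM. Immediate early and heat shock genes (6 of 12 higher) summed to 63.7 to 123, 193 to 659 and 87.6 to 101 RPKM, with TG Aire-/- replicate 2 at the upper end. The 15 hepatocyte genes, of which 5 fell and none rose in TG Aire-/- livers, summed to 39601 to 72032, 25296 to 39290 and 62851 to 63449 RPKM. The part of these cells in the members' differences was not tested.

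**Figure D2:**
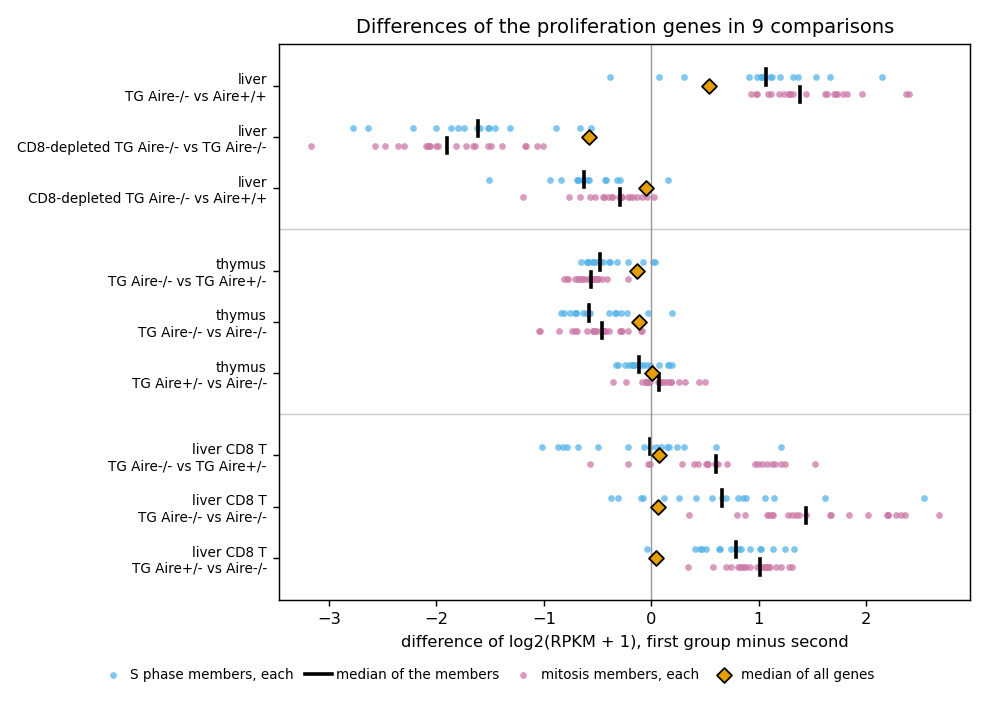
Difference of log2(RPKM + 1), first group minus second, for each S phase and mitosis member in the 9 comparisons, with the members' medians as bars and the median of all genes as diamonds. In liver the medians of both classes lie beyond that of all genes, at 1.07 and 1.38 in TG Aire-/- against Aire+/+ livers and at -1.61 and -1.90 after depletion, and in the 3 CD8+ T comparisons the median of the mitosis members lies to the right of that of the S phase members, while single members overlap.

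In thymus the members were far more abundant than in liver, and none differed between genotypes by the test. Their median level was 20.02 to 43.99 RPKM per thymus library, against 0.392 to 7.87 RPKM per liver library, and these levels come from tables whose scaling was done separately. No member was called in any of the 3 comparisons (limma, adjusted p under 0.05), while among all 12568 genes tested the share called was 0% higher and 0% lower in TG Aire-/- against TG Aire+/-, 0% higher and 0.0159% lower in TG Aire-/- against Aire-/-, and 0% either way in TG Aire+/- against Aire-/-. At an unadjusted p under 0.05 (limma), 7 members were lower in TG Aire-/- against Aire-/- thymus (Mcm2, Mcm5, Mcm6, Mcm7, Cdt1, Rrm1 and Bub1b) and no member passed in the other 2 comparisons. Of all 12568 genes, 747 were lower and 202 higher by that measure in TG Aire-/- against Aire-/-. The counts were 206 lower and 73 higher in TG Aire-/- against TG Aire+/-, and 34 lower and 84 higher in TG Aire+/- against Aire-/-.

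The estimates in TG Aire-/- thymus were nonetheless almost all below those of the other genotypes. The log2 difference was negative for 38 of 40 members against TG Aire+/-, with a median of -0.53 where all genes had -0.14, and for 39 of 40 against Aire-/-, with a median of -0.52 where all genes had -0.11. Members were not independent of each other, since the same libraries gave all 40. Replicate 1 was the lowest of all 9 thymus libraries for 34 members, and how many of all genes were lowest there was not counted. Without replicate 1 the medians were -0.26 and -0.23, and without replicate 3, in which 10 members were highest of all, they were -0.86 and -0.85. In TG Aire+/- against Aire-/- thymus the median was -0.02. The lower member levels of replicate 1 came with fewer reads from double-positive thymocyte genes (418 RPKM) and T cell genes (1161 RPKM), and their part in the result was not tested.

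Mki67 was at 24.9, 55.2 and 97.1 RPKM in TG Aire-/- thymus, 66.4, 79.8 and 80.9 RPKM in TG Aire+/- thymus and 51.0, 78.7 and 77.0 RPKM in Aire-/- thymus. The TG Aire-/- libraries held the lowest and the highest value of the 9. Its log2 difference was -0.55 ± 0.42 against TG Aire+/- and -0.39 ± 0.42 against Aire-/- (limma adjusted p = 0.892 and 0.744). Cdc20 was at 25.3, 27.3 and 59.1 RPKM in TG Aire-/- thymus, 40.2, 60.1 and 72.9 RPKM in TG Aire+/- thymus and 54.3, 53.2 and 68.3 RPKM in Aire-/- thymus. A pair of TG Aire-/- libraries lay below all others and the third among them. Kif20a and Plk1 had log2 differences of -0.56 ± 0.28 and -0.53 ± 0.29 against TG Aire+/- (limma adjusted p = 0.892 each). Bub1b was the mitosis member with the smallest p against Aire-/- thymus, with a difference of -1.04 ± 0.43 (limma adjusted p = 0.61).

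Of the licensing genes, Mcm2, Cdt1 and Mcm6 were the S phase members with the smallest p in TG Aire-/- against Aire-/- thymus. Mcm2 was at 21.6, 25.5 and 32.5 RPKM in TG Aire-/- thymus, 31.2, 38.1 and 48.9 RPKM in TG Aire+/- thymus and 34.4, 46.6 and 51.1 RPKM in Aire-/- thymus. Every TG Aire-/- library was below every Aire-/- library, with a log2 difference of -0.71 ± 0.25 (limma adjusted p = 0.61). The same held for Mcm7 (-0.61 ± 0.26) and Cdt1 (-0.57 ± 0.24), so 3 of 40 members did not overlap, a share near that of all genes, of which 6.42% were wholly lower and 2.27% wholly higher in this comparison. Against TG Aire+/- no member was separated, where 7.88% of all genes were wholly lower and 1.47% wholly higher. In TG Aire+/- against Aire-/- thymus Plk1 alone was wholly higher (44.9, 44.8 and 42.4 RPKM in TG Aire+/- thymus, 37.2, 25.7 and 34.7 RPKM in Aire-/- thymus), where 5.49% of all genes were wholly higher and 2.26% wholly lower. Pcna and Tyms, the synthesis genes with the smallest p against TG Aire+/-, had log2 differences of -0.53 ± 0.30 and -0.49 ± 0.26, and Tk1 had 0.04 ± 0.18 (limma adjusted p = 0.892, 0.892 and 0.968).

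In TG Aire+/- against Aire-/- thymus the S phase and mitosis members with the smallest p were Mcm5 (-0.33 ± 0.35), Mcm6 (-0.31 ± 0.29), E2f1 (-0.20 ± 0.24), Plk1 (0.44 ± 0.29), Ube2c (0.50 ± 0.49) and Cdk1 (0.32 ± 0.34), each with a limma adjusted p of 1. Ube2c had the highest RPKM of the mitosis members in every thymus library, at 72.2, 162 and 330 RPKM in TG Aire-/- thymus, 249, 305 and 226 RPKM in TG Aire+/- thymus and 271, 132 and 169 RPKM in Aire-/- thymus. Replicates of a genotype differed more in it than the genotypes did. Cell cycle genes outside the 40 gave no call either (limma). Spc25, a kinetochore gene, had the smallest p of the other mitosis genes against TG Aire+/- thymus, with -1.04 ± 0.39.

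**Figure D3:**
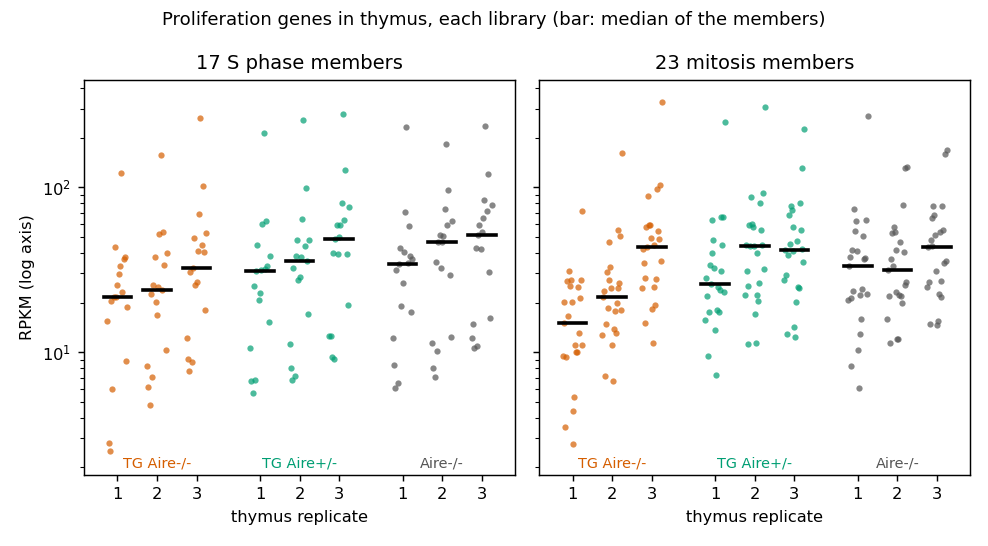
RPKM (log axis) of the 17 S phase and the 23 mitosis members in each of the 9 thymus libraries, with a bar at the median of the members. The median of the mitosis members runs from 15.01 RPKM in TG Aire-/- replicate 1 to 44.1 RPKM in a TG Aire+/- library, and replicate 3 of the TG Aire-/- group lies among the other genotypes.

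In CD8+ T cells sorted from liver the members were highest in the TG Aire-/- library, intermediate in TG Aire+/- and lowest in Aire-/- for 26 of 40, and that order held for 19 of the 23 mitosis members and 7 of the 17 S phase members. How many of all genes follow that order was not counted, so these counts have no background beside them. There is 1 library per genotype, so no test was possible and the differences compare libraries. Genes were counted at a log2 difference of at least 1 in either direction.

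Between the TG Aire-/- and TG Aire+/- libraries, 8 members were higher by at least 1 and 1 was lower, where 6.99% of all 11342 genes were higher and 6.91% lower. Of the 8, 7 were mitosis members, and estimates were above 0 for 19 of 23 mitosis and 8 of 17 S phase members. The median was 0.60 for mitosis members, -0.01 for S phase members and 0.07 for all genes. Ccnb1, cyclin B1, was at 24.6 RPKM in the TG Aire-/- library, 7.90 RPKM in TG Aire+/- and 2.99 RPKM in Aire-/-. Cdk1, its partner, was at 25.6, 10.5 and 4.50 RPKM in TG Aire-/-, TG Aire+/- and Aire-/-, and Birc5, the survivin subunit of the passenger complex, at 39.7, 16.1 and 7.10 RPKM. In each the levels stepped down from the TG Aire-/- through the TG Aire+/- to the Aire-/- library. Ccna2, Aurkb, Cdc20 and Ube2c also differed by at least 1 between TG Aire-/- and TG Aire+/-, with log2 differences of 1.08, 1.12, 1.15 and 1.03. Ccna2 shares exon bases with Exosc9 on the other strand, which was at 58.5, 20.4 and 12.6 RPKM in the 3 libraries, so Ccna2 is uncertain here. Cdc20 shares exon bases with Elovl1 on the other strand, at 36.8, 27.9 and 19.6 RPKM in that order, so Cdc20 is uncertain too. Ube2c shares exon bases with Tnnc2 on the other strand, whose level was not looked up.

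The licensing and synthesis genes were mixed. Mcm2 was the member lower by at least 1, at 18.2 RPKM in the TG Aire-/- library, 37.7 RPKM in TG Aire+/- and 23.9 RPKM in Aire-/-. Mcm4 was at 27.3, 47.7 and 34.01 RPKM, Pcna at 123, 218 and 130 RPKM and Ccne2 at 4.04, 6.13 and 4.39 RPKM in the same order. These 4 S phase members were the members with their lowest value in TG Aire-/- and their highest in TG Aire+/-. Cdc6 and Rrm2 differed by -0.87 and -0.69 between TG Aire-/- and TG Aire+/- but were lowest in the Aire-/- library. Other S phase members followed the order of the mitosis genes: Mcm6, Mcm7, Tyms, Tk1, Rrm1, Uhrf1 and Ccne1, 7 of 17. Tk1 was the S phase member higher by at least 1, at 37.0 RPKM in the TG Aire-/- library, 15.5 RPKM in TG Aire+/- and 5.55 RPKM in Aire-/-, while Afmid, which overlaps it, stayed at 10.9, 10.7 and 8.06 RPKM. The 4 mitosis members highest in TG Aire+/- were Bub1b, Cenpe, Mki67 and Top2a. Mki67 was at 54.5, 63.3 and 30.9 RPKM and Top2a at 38.3, 57.2 and 29.7 RPKM in TG Aire-/-, TG Aire+/- and Aire-/-, and Bub1b and Cenpe had log2 differences of -0.027 and -0.013 between TG Aire-/- and TG Aire+/-.

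Against the Aire-/- library, 24 members were higher by at least 1 in TG Aire-/- and none lower, where 10.3% of all genes were higher and 10.2% lower. The median was 1.44 for mitosis members and 0.65 for S phase members, with 0.06 for all genes. All 7 genes of the cyclin and kinase group and all 5 checkpoint genes were among the 24, and no licensing gene was. The largest differences were those of Ccnb1 (2.68), Tk1 (2.54) and Ccna2 (2.36), and the licensing genes ranged between -0.38 for Mcm2 and 0.85 for Mcm5. In TG Aire+/- against Aire-/-, 17 members were higher by at least 1 and none lower, where 2.14% of all genes were higher and 4.53% lower, with medians of 1.01 for mitosis and 0.79 for S phase members. Here Tk1 (1.33), Cdca8 (1.31) and Ccna2 (1.28) differed most, and Cdc6 (1.13) was the licensing gene past 1. Both comparisons share the Aire-/- library. That library held more RNA of other cells than the other 2, with neutrophil genes at 664 RPKM in TG Aire-/-, 17.99 RPKM in TG Aire+/- and 1579 RPKM in Aire-/-, and macrophage genes at 57.1, 14.1 and 406 RPKM. T cell genes summed to 2237, 2585 and 2170 RPKM. Between TG Aire-/- and TG Aire+/-, 9 of 12 neutrophil genes were higher by at least 1. The part of the admixed cells in any of the 3 comparisons was not tested.

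**Figure D4:**
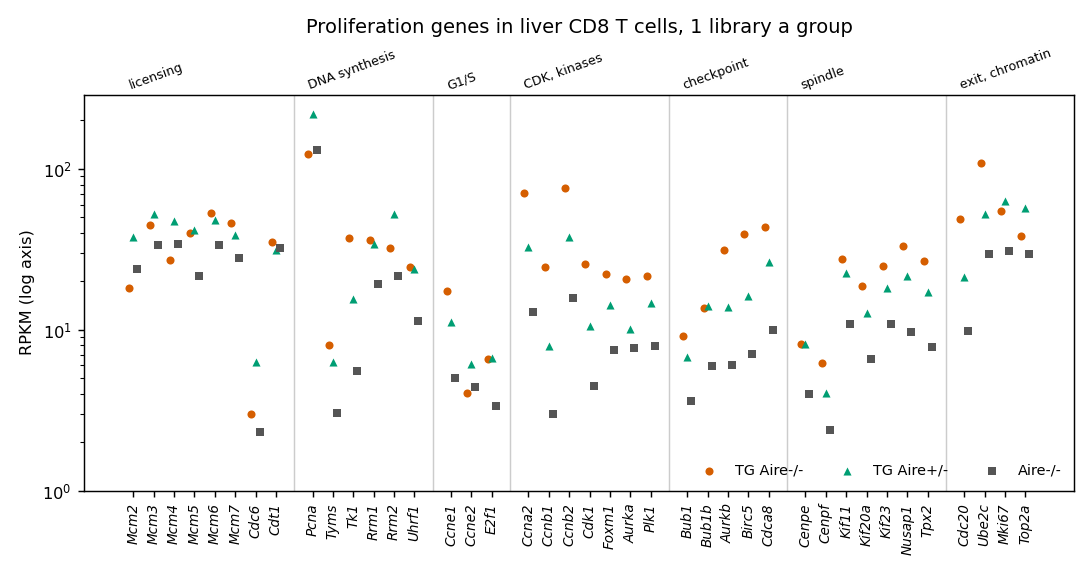
RPKM (log axis) of the 40 members in the CD8+ T libraries of TG Aire-/-, TG Aire+/- and Aire-/- mice, grouped by role, with 1 library a group. In 19 of the 23 mitosis members the values step down in that order of libraries, while Mcm2, Mcm4, Pcna and Ccne2 are lowest in TG Aire-/-. The share of all genes with that order was not counted.

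Transcript length moved with the differences among the mitosis members in the CD8+ T libraries. Spearman's rho between the log2 difference of TG Aire-/- against TG Aire+/- and the longest annotated transcript was -0.64 over the 23 mitosis members, -0.15 over the 17 S phase members and -0.35 over 11161 genes, as a description of a single pair of libraries. The 11 mitosis members with transcripts up to 3410 bases, the median of the 40, had a median difference of 1.03 and the 12 longer ones 0.45, whereas the 9 shorter and 8 longer S phase members had -0.01 and -0.09. Mki67 and Top2a, with transcripts of 10061 and 5221 bases, are among the long ones, and Ccnb1 has 2489 bases. After the trend along length was removed from each library, the median was 0.73 for mitosis members and -0.04 for S phase members. Between the TG Aire-/- and Aire-/- CD8+ T libraries rho was -0.62 over mitosis members and -0.31 over all genes. The median there was 2.20 for shorter and 1.20 for longer mitosis members. In TG Aire-/- against Aire-/- thymus rho was -0.51 over S phase members, -0.26 over mitosis members and -0.33 over all genes. With the length trend removed, that S phase median moved from -0.58 to -0.61.

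**Figure D5:**
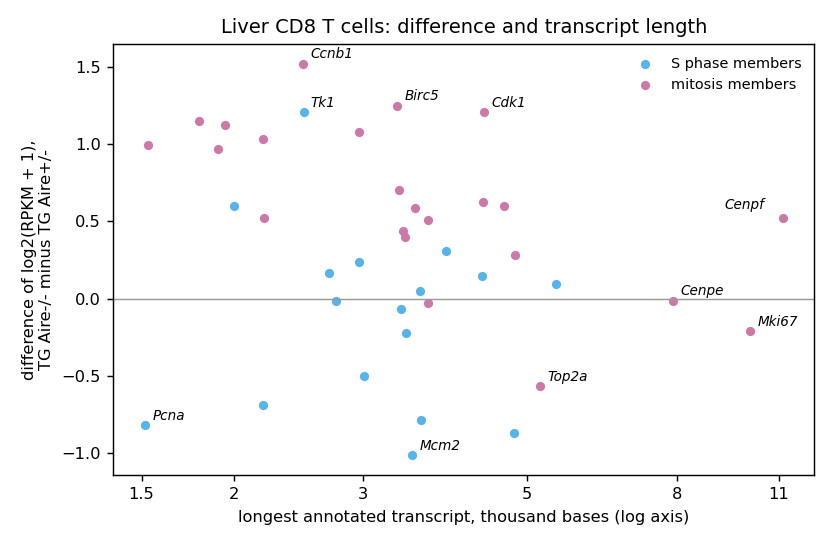
Difference of log2(RPKM + 1) between the TG Aire-/- and TG Aire+/- CD8+ T libraries against the longest annotated transcript of each member (log axis). The 11 shorter mitosis members have a median of 1.03 and the 12 longer ones 0.45, with exceptions on both sides such as Cdk1 (1.21) and Cenpf (0.52) among the longer and Kif23 (0.44) among the shorter.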

How the data were processed

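Bulk RNA sequencing libraries were measured, and 18 of 22 samples were analysed (whole liver, whole thymus and CD8+ T cells sorted from liver). The other 4, livers without a batch number, were not analysed here. The authors deposited RPKM per gene in 1 table for each of the 3 sources. Reads were aligned with STAR 2.5.2b to mm10, per the submitters' processing notes. Annotation, counting tool and strand setting: each is not given in the sources used here. Both Illumina and BGI library kits appear in the labels' protocols without a statement of which library used which, so a platform could not be set against the groups.

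Values were analysed as log2(RPKM + 1) with limma 3.58.1 in R 4.3.3 (linear model, moderated statistics with an intensity trend, two-sided, Benjamini-Hochberg adjustment over all genes tested). Each fit held all 3 groups of a table and no covariate. Genes entered a fit if 3 or more thymus samples, or 2 or more liver samples, reached 1 RPKM. The pseudocount of 1 makes differences of low genes smaller than their ratios. CD8+ T libraries, 1 a group, were compared by differences of at least 1 on the log2 scale, over genes that reached 1 RPKM in any of the 3 libraries. The steps were tested on simulated data.

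Depth was inferred from the steps between low values. Since 40.2% to 49.0% of these values were within 0.1 of a whole read, where chance gives 20%, reads were not recovered. A floor of 3 reads on 2000 bases corresponds to 0.0502 to 0.0739 RPKM.

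Replicate numbers come from the sample titles. Deviations of same-numbered samples from their group means correlated at -0.18 to 0.77 in thymus and -0.15 to 0.29 in liver, so the numbers were not taken to pair the samples. Members and gene lists were chosen with earlier results of these data known. Members named with their fit were the 3 of each role with the smallest p in each liver comparison, the 3 S phase and 3 mitosis members with the smallest p in each thymus comparison, the 3 of each role with the largest difference in CD8+ T cells, and Mki67. From each other list the 2 genes with the smallest p or largest difference were eligible. Tob1 in liver, and members given beyond this rule, were chosen after seeing their values. Symbols were matched to RefSeq promoter windows and to the GRCm38 annotation for transcript length and overlapping genes. Of the 40 members, 10 share exon bases with a gene on the opposite strand and 4 (Pcna, Tyms, Ccnb1 and Ccnb2) have a pseudogene by name, so part of their reads may be split.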

Additional observations from a re-analysis of the deposited data

Results flagged for a closer look

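Mcm7 and Cdt1, both of the licensing group, had opposite directions in thymus and in sorted CD8+ T cells when TG Aire-/- was set against Aire-/-. For Mcm7 the log2 difference was 0.69 between the TG Aire-/- and Aire-/- CD8+ T libraries and -0.61 in thymus, where all 3 TG Aire-/- libraries were below all 3 Aire-/- libraries. For Cdt1 it was 0.12 in the CD8+ T libraries and -0.57 in thymus, again without overlap. In thymus 6.42% of all genes were separated in that direction, and the 0.12 of Cdt1 is a difference between single libraries. The differences between thymus and CD8+ T cells were not tested, since there is 1 CD8+ T library per genotype.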

How the results depend on the processing

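In liver, the 30 members called higher in TG Aire-/- against Aire+/+ livers became 15 without an expression filter, 5 under median of ratios scaling and 3 under quantile normalization, and 2 to 33 when a replicate was left out. The 36 called lower in CD8-depleted against TG Aire-/- livers became 21 under median of ratios scaling and 15 under quantile normalization, and 21 to 35 when a replicate was left out. With the replicate number as a block (replicate block) the counts were 29 and 35, and 0 in the other liver comparison and in the 3 thymus comparisons. The crossed pairing of the CD8-depleted livers, tried because same-numbered livers deviated apart, gave 34 and 36. No thymus count left 0 under any alternative run. Ccne2 turned to -0.40 under median of ratios scaling, -0.62 under quantile normalization and -0.12 without Aire+/+ replicate 1 (0.26 without Aire+/+ replicate 2) in TG Aire-/- against Aire+/+ livers, and to 0.049 under quantile normalization in CD8-depleted against TG Aire-/- livers. In CD8-depleted against Aire+/+ livers, the values with single replicates left out ran from -0.91 to 0.022 for Ccna2, -1.03 to 0.30 for Cdca8, -1.57 to 0.038 for Ube2c, -0.70 to 0.056 for E2f1, -0.60 to 0.029 for Kif11, -0.67 to 0.13 for Tpx2, -0.75 to 0.35 for Mki67 and -0.26 to 0.57 for Ccne1. CD8-depleted replicate 1 was the one left out at the high end and CD8-depleted replicate 2 at the low end, and Mki67 was also positive (0.068) without Aire+/+ replicate 2. In thymus Mki67 ran from -0.85 to 0.11 in TG Aire-/- against Aire-/- (positive without TG Aire-/- replicate 1) and from -0.045 to 0.26 in TG Aire+/- against Aire-/- (negative without Aire-/- replicate 1). In CD8+ T cells the mitosis median of TG Aire-/- against TG Aire+/- was 0.73 with the length correction. Against Aire-/-, the median of TG Aire-/- was 1.33 over all members and 1.55 over mitosis members with a pseudocount of 0.1, 1.66 over mitosis members with the length correction and 0.44 over S phase members under quantile normalization. The length correction, the S phase and mitosis medians and the crossed pairing were chosen after the data were seen. The causes of these changes were not tested. Depth limits members such as Cdc20 in CD8-depleted replicate 1, whose 0.0756 RPKM is near the floor of 3 reads.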

Other observations

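In CD8+ T cells sorted from liver, 2 of 18 genes that brake the cell cycle were higher by at least 1 on the log2 scale in TG Aire-/- against TG Aire+/- and 3 were lower, where 6.99% of all genes were higher and 6.91% lower. Tob1, an antiproliferative factor of resting T cells, was at 12.5 RPKM in the TG Aire-/- library, 90.5 RPKM in TG Aire+/- and 79.3 RPKM in Aire-/-. Btg2, of the same family, was at 42.4, 101 and 71.7 RPKM in that order of libraries, and Cdkn1a, the kinase inhibitor p21, at 4.54, 11.4 and 6.80 RPKM. The higher ones were Fzr1, an activator of the anaphase-promoting complex, at 31.9, 13.1 and 9.10 RPKM, and Cdkn2c, an inhibitor of Cdk4 and Cdk6, at 17.5, 8.17 and 5.63 RPKM. Of 15 G1 cyclins, kinases and E2F partners none was higher and 1 was lower, Ccnd2, cyclin D2, at 16.3, 34.7 and 33.0 RPKM. Immediate early and heat shock genes, which respond to handling of cells, summed to 653, 1997 and 2031 RPKM in the same order, and their part in these differences was not tested. Of 39 other mitosis genes, 7 were higher by at least 1 in TG Aire-/- against TG Aire+/- and none lower, Cdc25c, the phosphatase that activates Cdk1, among them at 10.5, 2.83 and 0.976 RPKM. Of 32 other replication genes none was higher and 1 was lower, Pola1, a subunit of DNA polymerase alpha, at 2.39, 8.09 and 4.70 RPKM. There is 1 library per genotype, so none of these differences was tested.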
